A study of Mus musculus with 16 samples.

Results

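The genes described here are 39 genes of the presynaptic terminal, which encode proteins of synaptic vesicles, of the fusion machinery, of the active zone and of vesicle retrieval. They were chosen by symbol, for their role at the terminal, with earlier results of these data known. All 39 were found among the 54532 entries of a count table of mouse brain RNA. The table came from 16 libraries, and all mice were female and 9 months old. Ch25h was intact (Ch25h+/+) or lost (Ch25h-/-), each in mice labelled Tau- or Tau+, which gives 4 groups of 4 libraries. Ch25h encodes cholesterol 25-hydroxylase, an enzyme that turns cholesterol into an oxysterol, and -/- marks animals with both copies disrupted. Tau+ is read here as the presence of a tau transgene; the labels name neither its promoter nor its mutation. The sample labels give frontal cortex as the tissue and the design text gives hippocampus, and this conflict bears on all values below. The labels do not say whether the 4 libraries of a group came from separate animals, so p-values measure the spread between these libraries.

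Neurons release transmitter from vesicles that are filled by transporters, held near the release site by synapsins, and docked at the active zone by Rab3 GTPases and their RIM partners. Munc13 proteins then open syntaxin so that syntaxin, SNAP25 and synaptobrevin can zip into the SNARE complex, complexins clamp it, and synaptotagmin triggers fusion when calcium enters. The ATPase NSF and its SNAP adaptors take the spent complex apart, and amphiphysins with dynamin cut new vesicles from the membrane. Loss of presynaptic proteins is a known feature of tauopathy and of Alzheimer disease, and several of these genes are used as markers of synapse content.

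Library totals were 15530352 to 25602500 counts, and the 39 genes together took 2.05% to 2.37% of each total. Ch25h had 5 to 30 counts in the 8 Ch25h+/+ libraries and 0 counts in all 8 Ch25h-/- libraries, as their labels say. Prnp, which was higher in all Tau+ libraries (1414 to 1935 CPM, that is, counts scaled to library depth) than in all Tau- libraries (708 to 839 CPM), separated the tau labels without overlap. All 8 neuron markers examined and all 7 markers of cortical excitatory neurons were detected in every library, among them Camk2a at 2320 to 3841 CPM. All 8 hippocampal markers examined were detected in every library too, from Wfs1 at 86.4 to 205 CPM and Ociad2 at 53.7 to 81.3 CPM to Prox1, which marks dentate granule cells, at 11.0 to 20.9 CPM and Tdo2 at 0.223 to 1.31 CPM. Summed choroid plexus markers spread widely between libraries (15.1 to 2753 CPM). The libraries also fell into 2 classes that the labels do not name: a ribosomal RNA entry took 2289 to 5684 CPM in 7 of the 8 Ch25h-/- libraries, called rRNA-rich here, and 111 to 475 CPM in the other 9 libraries. The lone rRNA-poor Ch25h-/- library was Ch25h-/- Tau+ replicate 1. In a bulk library, fewer terminals or neurons and less RNA per neuron cannot be told apart.

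The sequences below are shown because the GC content of the transcripts differed between the genes that fell and the genes that rose with Ch25h loss (described further on). Each line is a stretch of 90 bases from the middle of the coding sequence, 5′ to 3′, from GENCODE vM21 transcripts of the build GRCm38, with G and C in capitals. The first pair fell by the largest amounts and the second pair rose by the largest amounts. Over the whole coding sequence the GC content was 55.8% in Stx1a, 57.6% in Sncb, 48.1% in Pclo and 55.8% in Syn3, so the stretches of Stx1a and Syn3 differ where their coding sequences do not.
Stx1a, coding bases 388 to 477 of 864, 61.1% G and C: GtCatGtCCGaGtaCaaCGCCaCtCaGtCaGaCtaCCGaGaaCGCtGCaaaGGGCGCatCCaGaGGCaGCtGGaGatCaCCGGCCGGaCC
Sncb, coding bases 155 to 244 of 399, 61.1% G and C: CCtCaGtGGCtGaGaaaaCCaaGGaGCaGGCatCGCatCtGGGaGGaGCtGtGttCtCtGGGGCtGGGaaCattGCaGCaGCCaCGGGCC
Pclo, coding bases 7558 to 7647 of 15204, 51.1% G and C: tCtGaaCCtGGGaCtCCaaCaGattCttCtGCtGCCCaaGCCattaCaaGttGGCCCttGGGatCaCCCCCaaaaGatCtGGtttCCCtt
Syn3, coding bases 824 to 913 of 1737, 46.7% G and C: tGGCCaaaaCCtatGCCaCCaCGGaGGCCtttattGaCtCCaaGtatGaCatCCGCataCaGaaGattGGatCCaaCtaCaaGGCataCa

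The promoters were read as well. RefSeq promoter windows (build GRCm38.p6) were matched by symbol for 32 of the 39 genes, and the 250 bases before the start are printed for 4 of them, 5′ to 3′ on the gene's strand. Capitals mark matches, on either strand, to the cAMP response element (TGACGTCA) or to the GC box bound by Sp1-family factors (GGGCGG). Syn1 was added to the list because it held the only cAMP response element match, 159 bases before the RefSeq start. The GENCODE vM21 gene model of Syn1 begins at chrX:20921004 on the minus strand, which lies inside the printed window.
Syn1, chrX:20920919-20921168, minus strand: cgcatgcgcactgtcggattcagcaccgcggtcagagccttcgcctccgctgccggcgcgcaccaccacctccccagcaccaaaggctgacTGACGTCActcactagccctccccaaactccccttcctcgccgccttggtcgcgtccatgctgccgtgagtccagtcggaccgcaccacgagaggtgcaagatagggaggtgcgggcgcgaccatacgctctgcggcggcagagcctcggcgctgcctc
Stx1a, chr5:135023232-135023481, plus strand: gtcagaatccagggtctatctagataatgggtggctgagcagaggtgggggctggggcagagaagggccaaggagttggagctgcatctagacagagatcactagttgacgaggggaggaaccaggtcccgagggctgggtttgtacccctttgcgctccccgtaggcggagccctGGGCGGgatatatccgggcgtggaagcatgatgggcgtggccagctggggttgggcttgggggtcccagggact
Sncb, chr13:54766596-54766845, minus strand: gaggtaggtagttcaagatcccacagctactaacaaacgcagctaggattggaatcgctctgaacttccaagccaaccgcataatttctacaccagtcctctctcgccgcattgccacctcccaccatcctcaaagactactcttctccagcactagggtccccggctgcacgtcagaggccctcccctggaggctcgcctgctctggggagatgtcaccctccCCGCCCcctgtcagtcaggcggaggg
Pclo, chr5:14514668-14514917, plus strand: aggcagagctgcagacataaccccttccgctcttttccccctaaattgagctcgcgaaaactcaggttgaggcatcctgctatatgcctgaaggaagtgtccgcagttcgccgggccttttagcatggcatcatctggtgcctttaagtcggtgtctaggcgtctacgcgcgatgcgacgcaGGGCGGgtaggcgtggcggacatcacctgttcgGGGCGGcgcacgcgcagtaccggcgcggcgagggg

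The cAMP response element was found in 1 of the 41 promoter windows of these genes (2.44%), against 1.55% of the 32851 windows in the table. A GC box was found in 22 of the 41 (53.7%), against 32.7% of all windows. The 41 windows, of 32 genes, had a median of 58.8% G and C, against 52.4% over all windows. The part of this base content in the GC box matches was not tested. The 5 windows of genes that fell with Ch25h loss had 58.8% to 67.6% G and C (median 62.0%), and the 4 of genes that rose had 47.6% to 69.6% (median 61.0%). These matches describe letters in a fixed window and say nothing of binding.

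Levels of the 39 genes spanned a wide range. Per kilobase of exon, Cplx1 was highest at 357 CPM per kilobase (mean of 16 libraries), followed by Snap25 (349), Dnm1 (341), Vamp2 (302) and Slc17a7 (282). The lowest were Syn3 (0.973), Unc13c (2.89), Unc13b (3.61), Sv2c (3.66) and Slc17a6 (5.82). Sv2c and Slc17a6 lay far below their relatives Sv2a (119) and Slc17a7 in all libraries, as the plot of levels shows. The coefficient of variation within a group, averaged over the 4 groups, had a median of 9.26% over the 39 genes and ran from 4.39% to 22.3%.

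**Figure D1:**
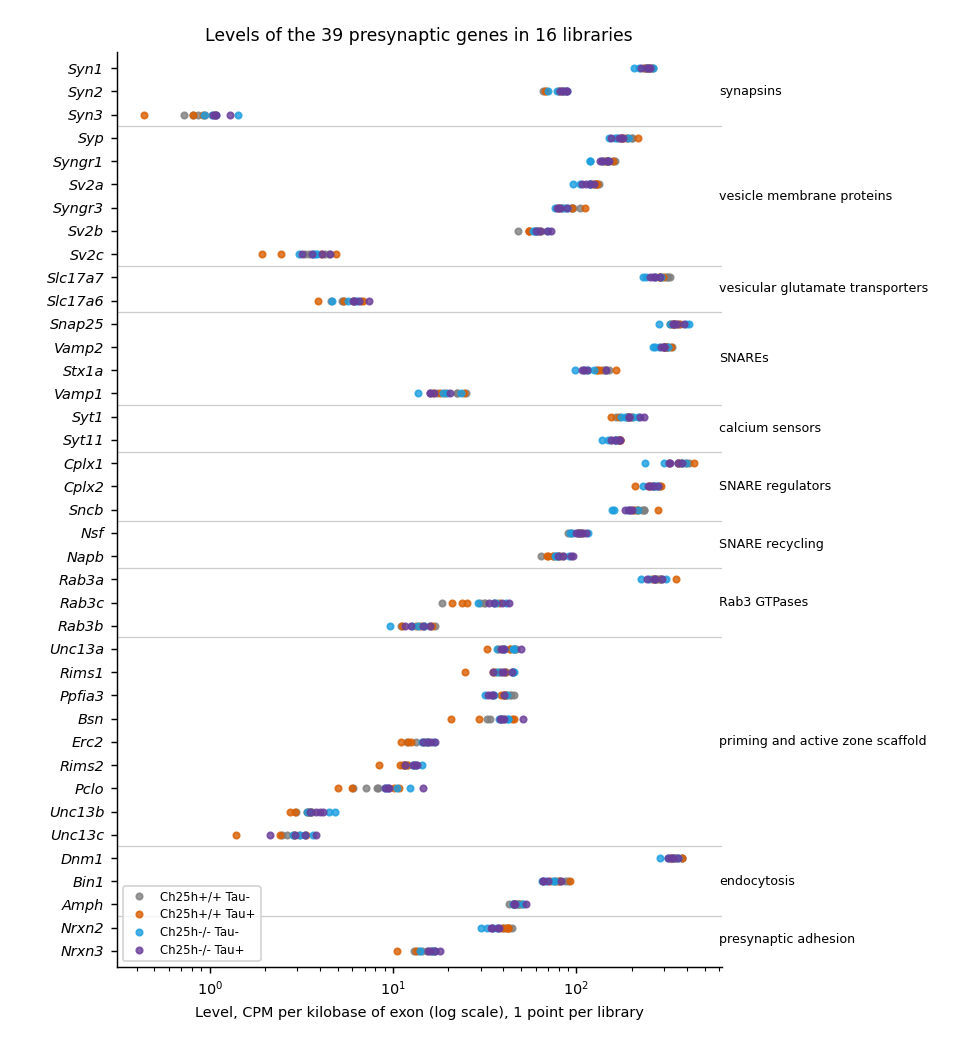
Level of each of the 39 genes in depth-scaled counts (CPM) per kilobase of exon, on a log axis, with 1 point per library coloured by group and genes ordered by role. The range runs from Syn3, at a mean of 0.973, to Cplx1, at a mean of 357, and for each gene the points of the 4 groups lie close together relative to that range.

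The tau effect in Ch25h+/+ asks whether the Tau+ animals, with Ch25h present, differ in the RNA of these genes. It was not detected for any of them. Of the 17736 genes tested 1.56% passed an adjusted p of 0.05 (edgeR quasi-likelihood test, Benjamini-Hochberg over all genes tested), and of the 39 presynaptic genes 0 did. At an unadjusted p under 0.05 the count was 0 as well, where all genes gave 9.38%, and DESeq2 and limma-voom also called 0. The log2 fold changes ran from -0.25 for Rims1 (95% confidence interval -0.50 to 0.002) to 0.11 for Pclo (-0.32 to 0.54). The lowest bound of any interval was -0.65 and the highest 0.54, and 35 of the 39 intervals lay within 0.5 on either side of 0. Of the 39 fold changes 32 were below 0, with a median of -0.047, beside a median of -0.008 over all genes, of which 47.8% were above 0. This count ranged with the processing, since 3 to 15 of the 39 were above 0 over the alternatives, with medians of -0.081 to -0.018. In lists described further on, 31 of 42 other vesicle and fusion, 12 of 15 other active zone and 15 of 23 other endocytosis genes were also below 0. So were 7 of 8 neuron, 5 of 7 excitatory and 2 of 6 inhibitory neuron markers, and 0 of 6 astrocyte and 0 of 6 microglia markers. Slc17a7 was the only one of the 39 whose 4 Tau+ and 4 Tau- libraries did not overlap in Ch25h+/+ (2.56%, against 5.86% of all genes), and its adjusted p was 0.693.

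The tau effect in Ch25h-/- was likewise below detection. It passed in 0.0395% of all genes and in 0 of the 39, with 0 at an unadjusted p under 0.05 (all genes 3.68%) and 0 in DESeq2 and limma-voom. Fold changes on the log2 scale ran from -0.13 (Vamp1) to 0.19 (Slc17a6), and 29 of 39 were above 0 (all genes 52.8%), with a median of 0.059 (all genes 0.008). Over the alternatives 23 to 32 were above 0 and the median was 0.022 to 0.088. In the same lists, 26 of 42 other vesicle and fusion, 8 of 15 other active zone and 16 of 23 other endocytosis genes were above 0. So were 7 of 8 neuron, 3 of 7 excitatory and 0 of 6 inhibitory neuron markers. The Tau- and Tau+ libraries overlapped for all 39 (2.14% of all genes did not overlap). For the tau effect averaged over both genotypes 0.857% of all genes passed and 0 of the 39, and 1 had an unadjusted p under 0.05 (all genes 9.85%). That gene was Rims1, at -0.19 (-0.36 to -0.007), with an adjusted p of 0.482. All 39 intervals of the averaged tau effect lay within 0.5 on either side of 0.

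Ch25h loss asks how the absence of the enzyme changes the same genes. Averaged over both tau states (the mean Ch25h loss), 14 of the 39 genes passed (35.9%), against 20.3% of all genes tested. Of these, 8 were lower in Ch25h-/- (all genes 10.8%) and 6 were higher (all genes 9.55%). The lower genes were Stx1a, Sncb, Nrxn2, Ppfia3, Bin1, Slc17a7, Syngr3 and Sv2a, with changes of -18.8% (Stx1a) to -10.8% (Sv2a). The higher genes were Rims2, Erc2, Unc13b, Rab3c, Syn3 and Pclo, with changes of 17.5% (Rims2) to 36.3% (Pclo). At an unadjusted p under 0.05 there were 21 of the 39 (all genes 35.1%). The median over the 39 was 0.004, equal to that of all genes. These calls rest on a contrast that the library classes share: all 8 Ch25h+/+ libraries and 1 Ch25h-/- library were rRNA-poor. Without a term for the class, DESeq2 called 18 of the 39 (27.5% of all genes given an adjusted p) and limma-voom 18 (25.7% of all genes). With the class as a covariate edgeR called 0 of the 39 and 0 of all genes. After correction of each library for GC content by offsets 2 passed, Rims2 and Syp, against 3.91% of all genes. The covariate fit separates Ch25h loss from the class only through 1 Ch25h-/- library. Its fold changes therefore cannot show whether a change holds or is lost. Those values were 0.33 for Unc13b (0.28 without the covariate), 0.32 for Rab3c (0.42), 0.32 for Syn3 (0.44) and -0.21 for Sncb (-0.28). They were -0.17 for Nrxn2, 0.18 for Pclo, 0.10 for Erc2 and between -0.077 (Slc17a7) and 0.081 (Rims2) for the other 7 genes. Over all 39 genes the mean Ch25h loss lay outside its 95% interval for 13 with the class covariate and for 10 with the GC offsets, and those values are given beside the genes. Class and genotype cannot be told apart except through that 1 library.

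Split by tau state, Ch25h loss in Tau- passed in 1 of the 39, Nrxn2, against 1.03% of all genes, and 15 had an unadjusted p under 0.05 (all genes 20.9%). Ch25h loss in Tau+ passed in 0 of the 39 in edgeR (all genes 3.55%), with 12 at an unadjusted p under 0.05 (all genes 23.9%). DESeq2 called 6 in Tau-, where it called 1124 of 11200 genes given an adjusted p, and 3 in Tau+ (Rab3c, Erc2 and Nrxn2), where it called 9.54%. Limma-voom called 8 in Tau- (7.83% of all genes) and 5 in Tau+ (10.6%). The smallest adjusted p in Tau+ was 0.0682, for Erc2. The genotypes did not overlap for 7 of the 39 in Tau- (17.9%, against 16.2% of all genes) and for 3 in Tau+ (7.69%, against 10.2%). These contrasts share no library, and 34 of the 39 genes had the same sign in both (87.2%, against 73.7% of all genes), 16 higher and 18 lower. Their Spearman correlation over the 39 genes was 0.957 (all genes 0.521), where both splits share the imbalance of the library classes. The plot of fold changes shows both pairs of contrasts side by side.

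**Figure D2:**
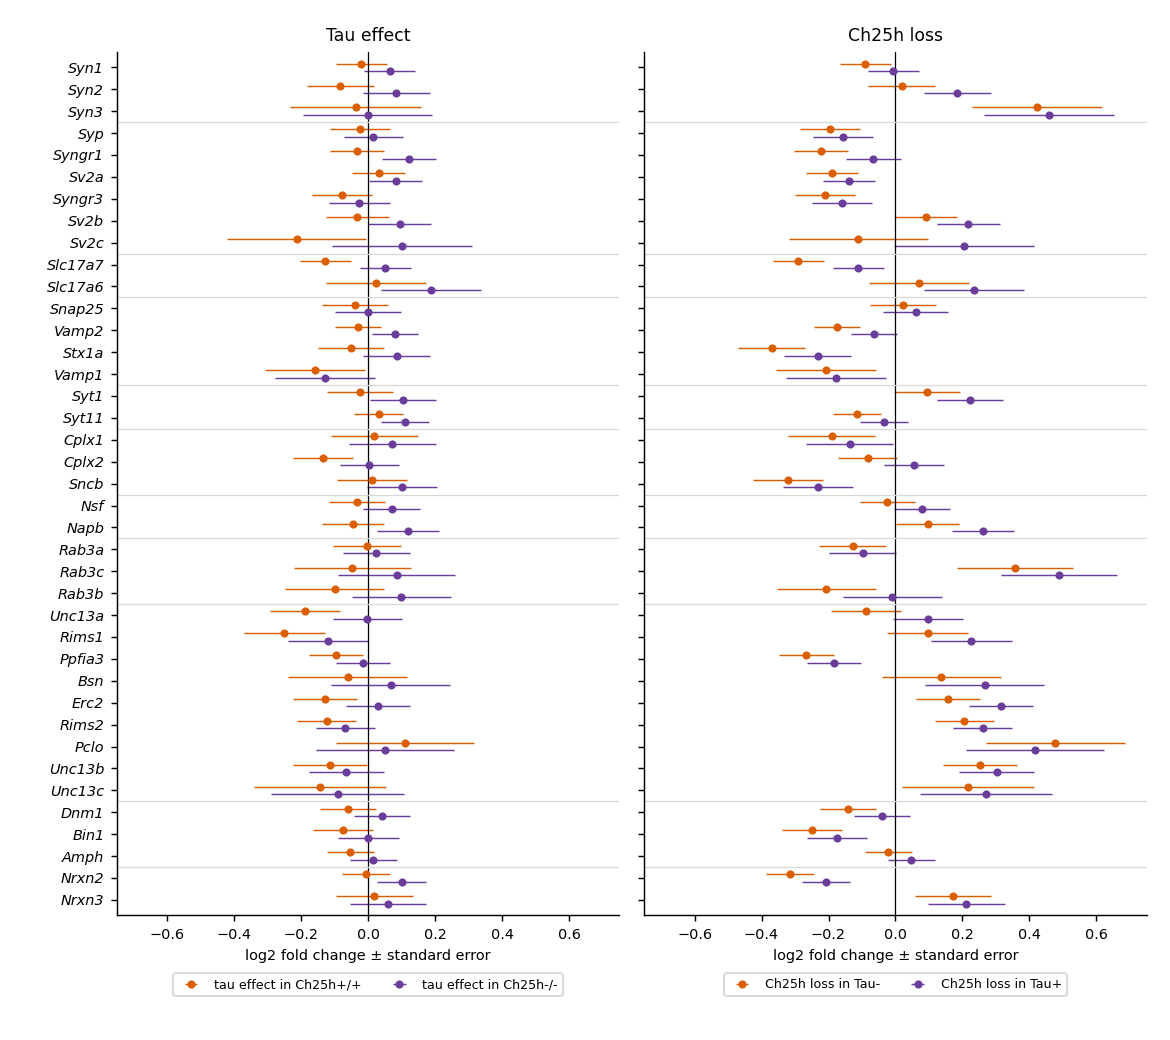
Log2 fold change with its standard error for each of the 39 genes, for the tau effect in the 2 Ch25h genotypes (left) and for Ch25h loss in the 2 tau states (right). The tau effects lie between -0.25 and 0.19, while Ch25h loss spans -0.37 to 0.49 with the same sign in both tau states for 34 genes.

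The synapsins coat vesicles and tie them to each other and to actin. Syn1 was at 859, 851, 785 and 772 CPM in Ch25h+/+ Tau-, 798, 835, 806 and 783 in Ch25h+/+ Tau+, 682, 800.4, 723 and 864 in Ch25h-/- Tau-, and 805, 833, 746 and 826 in Ch25h-/- Tau+. The groups overlapped, and no comparison passed (mean Ch25h loss -0.048, interval -0.16 to 0.066; 0.13 with the GC offsets). Syn2 was at 619, 566, 592 and 461 CPM in Ch25h+/+ Tau-, 562, 597, 479 and 476 in Ch25h+/+ Tau+, 597, 493, 549 and 628 in Ch25h-/- Tau-, and 576, 625, 586 and 616 in Ch25h-/- Tau+. It had 4 libraries under 500 CPM, of which 3 were Ch25h+/+, and its fold change with Ch25h loss was 0.10 (interval -0.047 to 0.25). Syn3, the rarest synapsin in adult brain, was at 10.6, 11.7, 8.93 and 9.97 CPM in Ch25h+/+ Tau-, 5.42, 11.4, 13.1 and 9.99 in Ch25h+/+ Tau+, 17.5, 11.5, 13.4 and 12.7 in Ch25h-/- Tau-, and 12.8, 13.1, 13.3 and 15.9 in Ch25h-/- Tau+. It rose with Ch25h loss (log2 fold change 0.44, standard error 0.14; edgeR adjusted p 0.0316), and Ch25h+/+ Tau+ replicate 1 was the lowest of the 16 libraries. The Timp3 gene lies within Syn3 on the other strand, opposite 14.1% of its exon bases, and reads of the pair may be mixed since the use of strand is not stated.

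Among the proteins of the vesicle membrane, Syp (synaptophysin, a common synapse marker) was at 1048, 1043, 996 and 925 CPM in Ch25h+/+ Tau-, 1134, 975, 911 and 926 in Ch25h+/+ Tau+, 849.5, 872, 781 and 1001 in Ch25h-/- Tau-, and 933, 915, 807 and 887 in Ch25h-/- Tau+. Ch25h-/- libraries lay lower on average, with overlap, and the adjusted p for the mean Ch25h loss was 0.0546 (edgeR; log2 fold change -0.18, standard error 0.063). The antisense gene Gm14703 lies opposite 16.8% of the exon bases of Syp. Syngr3, a synaptogyrin known to bind tau on vesicles, was at 217, 196, 198 and 194 CPM in Ch25h+/+ Tau-, 231, 195, 164 and 172 in Ch25h+/+ Tau+, 180.5, 172, 159 and 183 in Ch25h-/- Tau-, and 183, 166, 169 and 163 in Ch25h-/- Tau+. It fell with Ch25h loss (log2 fold change -0.19, standard error 0.064; edgeR adjusted p 0.0474; log2 fold change -0.028 with the GC offsets). In Tau- the 2 genotypes did not overlap, while in Tau+ they did. Its relative Syngr1 ranged over 568 to 777 CPM (median 705), with a fold change of -0.14 and an edgeR adjusted p of 0.0823 (log2 fold change 0.009 with the GC offsets).

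The SV2 proteins are vesicle glycoproteins that bind synaptotagmin and are the target of levetiracetam in the case of SV2A. Sv2a was at 599, 614, 547 and 552 CPM in Ch25h+/+ Tau-, 592, 603, 595 and 573 in Ch25h+/+ Tau+, 444, 549, 484 and 551 in Ch25h-/- Tau-, and 578, 550.1, 496 and 522 in Ch25h-/- Tau+. It fell with Ch25h loss (log2 fold change -0.16, standard error 0.055; edgeR adjusted p 0.0424; log2 fold change -0.039 with the class covariate), with overlap in both tau states. Sv2b ranged over 401 to 612 CPM (median 507) and was not past the threshold (0.16, edgeR adjusted p 0.107; log2 fold change -0.005 with the class covariate). Sv2c, which is most abundant in basal ganglia, was at 32.0, 43.4, 41.2 and 33.6 CPM in Ch25h+/+ Tau-, 18.8, 39.2, 47.2 and 23.9 in Ch25h+/+ Tau+, 29.6, 35.7, 37.5 and 36.2 in Ch25h-/- Tau-, and 30.8, 44.2, 34.9 and 39.5 in Ch25h-/- Tau+. Its lowest and highest libraries were both Ch25h+/+ Tau+, and no comparison passed (mean Ch25h loss 0.047, interval -0.26 to 0.36; -0.27 with the class covariate).

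Slc17a7 (VGLUT1) loads glutamate into vesicles of cortical neurons. It was at 1749.6, 1689.8, 1714 and 1635 CPM in Ch25h+/+ Tau-, 1536, 1522, 1547 and 1605 in Ch25h+/+ Tau+, 1239, 1455, 1300.0 and 1558 in Ch25h-/- Tau-, and 1546, 1442, 1359 and 1404 in Ch25h-/- Tau+. It fell with Ch25h loss (log2 fold change -0.20, standard error 0.054; edgeR adjusted p 0.0164; log2 fold change -0.077 with the class covariate and -0.052 with the GC offsets). In Ch25h+/+ the 4 Tau- libraries were all above the 4 Tau+ libraries, with group means of 1697 ± 48.2 and 1553 ± 36.6 CPM (SD, n = 4), a difference that did not pass (-0.13, interval -0.29 to 0.031). The 2 Ch25h-/- groups overlapped, with means of 1388 ± 145 and 1438 ± 79.7 CPM (SD, n = 4). Slc17a6 (VGLUT2), typical of thalamic terminals, was at 28.4, 36.2, 24.8 and 28.7 CPM in Ch25h+/+ Tau-, 29.3, 36.9, 32.5 and 21.0 in Ch25h+/+ Tau+, 30.7, 33.5, 25.2 and 34.4 in Ch25h-/- Tau-, and 35.0, 40.1, 32.8 and 33.0 in Ch25h-/- Tau+. All 4 groups overlapped and no comparison passed.

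The SNARE proteins drive fusion itself. Snap25 was at 2303, 2495, 2359.9 and 2318 CPM in Ch25h+/+ Tau-, 2303, 2245, 2455 and 2213 in Ch25h+/+ Tau+, 1925, 2782, 2212 and 2699.5 in Ch25h-/- Tau-, and 2307, 2622, 2285 and 2397 in Ch25h-/- Tau+. The lowest and the highest library were both Ch25h-/- Tau-, and the mean Ch25h loss was 0.041 (interval -0.11 to 0.19; -0.18 with the GC offsets). Stx1a (syntaxin 1A, chr5:135023482-135051100, plus strand, GRCm38) was at 383, 399, 374 and 385 CPM in Ch25h+/+ Tau-, 437, 358, 346 and 346 in Ch25h+/+ Tau+, 292, 307, 263 and 331 in Ch25h-/- Tau-, and 385, 292, 286 and 303 in Ch25h-/- Tau+. In Tau- the genotypes did not overlap, and in Tau+ Ch25h-/- replicate 1, the rRNA-poor library, lay within the Ch25h+/+ range while the other 3 lay below it. Stx1a had the largest fall of the 39 genes (log2 fold change -0.30, standard error 0.070; edgeR adjusted p 0.00888; log2 fold change 0.036 with the class covariate and -0.13 with the GC offsets).

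The synaptobrevins are the SNAREs of the vesicle. Vamp2 was at 1262, 1192, 1176 and 1208 CPM in Ch25h+/+ Tau-, 1253, 1155, 1189.9 and 1140.0 in Ch25h+/+ Tau+, 992, 1081, 1019 and 1197 in Ch25h-/- Tau-, and 1141, 1147, 1104 and 1142 in Ch25h-/- Tau+. It did not pass (-0.12, edgeR adjusted p 0.0923), and its highest library was Ch25h+/+ Tau- replicate 1. Vamp1, known best from motor neurons, was at 176, 228, 226 and 255 CPM in Ch25h+/+ Tau-, 183, 167, 249 and 194 in Ch25h+/+ Tau+, 139.6, 238, 189.6 and 199.9 in Ch25h-/- Tau-, and 207, 162, 171 and 161 in Ch25h-/- Tau+. It overlapped between all groups, with a mean Ch25h loss of -0.19 (interval -0.41 to 0.030; 0.10 with the class covariate) and a mean tau effect of -0.14 (interval -0.37 to 0.078).

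Synaptotagmins sense calcium or, in the case of Syt11, regulate traffic without binding it. Syt1, the sensor for fast release, was at 1574, 1595, 1575 and 1372 CPM in Ch25h+/+ Tau-, 1287, 1671, 1628 and 1428 in Ch25h+/+ Tau+, 1465, 1700.4, 1544 and 1818 in Ch25h-/- Tau-, and 1610.0, 1949, 1613 and 1842 in Ch25h-/- Tau+. Its 4 highest libraries were Ch25h-/-, and the mean Ch25h loss of 0.16 did not pass (edgeR adjusted p 0.114). Syt11 was at 904, 885, 869 and 801 CPM in Ch25h+/+ Tau-, 849, 898, 891 and 896 in Ch25h+/+ Tau+, 719.6, 855, 774 and 848 in Ch25h-/- Tau-, and 894, 899, 806 and 849 in Ch25h-/- Tau+. The groups overlapped, and its mean Ch25h loss was -0.075 (interval -0.18 to 0.032).

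Complexins bind the assembled SNARE complex. Cplx1 was at 785, 811, 785 and 897 CPM in Ch25h+/+ Tau-, 866, 701, 959 and 794 in Ch25h+/+ Tau+, 521, 866, 655 and 829 in Ch25h-/- Tau-, and 705, 826, 704 and 784 in Ch25h-/- Tau+. Ch25h-/- Tau- replicate 1 was the lowest library and Ch25h+/+ Tau+ replicate 3 the highest, and no comparison passed (mean Ch25h loss -0.16, interval -0.36 to 0.029). Cplx2, the other main forebrain complexin, was at 1372, 1286, 1413 and 1327 CPM in Ch25h+/+ Tau-, 1024, 1234, 1429 and 1231 in Ch25h+/+ Tau+, 1144, 1305, 1287 and 1359 in Ch25h-/- Tau-, and 1285, 1241, 1212 and 1372 in Ch25h-/- Tau+. It stayed within overlapping ranges, with a mean Ch25h loss of -0.014 (interval -0.15 to 0.12).

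Sncb (beta-synuclein, chr13:54758860-54766595, minus strand) belongs to a family of vesicle-binding proteins that chaperone SNARE assembly. It was at 499.8, 491, 448 and 504 CPM in Ch25h+/+ Tau-, 597, 434, 466 and 461 in Ch25h+/+ Tau+, 344, 409, 337 and 464 in Ch25h-/- Tau-, and 434, 423, 395 and 416 in Ch25h-/- Tau+. Sncb fell with Ch25h loss (log2 fold change -0.28, standard error 0.074; edgeR adjusted p 0.0164; log2 fold change -0.031 with the GC offsets). In Tau+ the highest Ch25h-/- library, at 434 CPM, lay just under the lowest Ch25h+/+ library, and in Tau- Ch25h-/- replicate 4 overlapped the Ch25h+/+ range.

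Nsf and Napb recycle SNARE complexes after fusion. Nsf was at 909, 873, 892 and 753 CPM in Ch25h+/+ Tau-, 847, 869.7, 853 and 777 in Ch25h+/+ Tau+, 768, 852, 786 and 964 in Ch25h-/- Tau-, and 868, 942, 829 and 899.6 in Ch25h-/- Tau+. It passed in no comparison, with a mean Ch25h loss of 0.028 (interval -0.10 to 0.15). Napb (beta-SNAP) was at 593, 525, 575 and 453 CPM in Ch25h+/+ Tau-, 488, 568, 527 and 497 in Ch25h+/+ Tau+, 543, 563, 542 and 646 in Ch25h-/- Tau-, and 559, 679.5, 593 and 660.4 in Ch25h-/- Tau+. Its 4 highest libraries were Ch25h-/-, and its mean Ch25h loss of 0.18 was short of the threshold (edgeR adjusted p 0.0626; log2 fold change -0.001 with the class covariate).

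Rab3 GTPases sit on vesicles and link them to RIM. Rab3a was at 642, 639, 646 and 622 CPM in Ch25h+/+ Tau-, 774, 578, 586 and 604 in Ch25h+/+ Tau+, 499, 598, 554 and 682 in Ch25h-/- Tau-, and 587, 649.9, 542 and 596 in Ch25h-/- Tau+. Ch25h+/+ Tau+ replicate 1 stood above all other libraries, and no comparison passed (mean Ch25h loss -0.11, interval -0.26 to 0.037). Rab3b was at 51.9, 56.1, 59.7 and 38.9 CPM in Ch25h+/+ Tau-, 57.3, 46.9, 49.5 and 39.2 in Ch25h+/+ Tau+, 48.4, 34.1, 44.5 and 51.9 in Ch25h-/- Tau-, and 41.1, 51.1, 43.9 and 55.8 in Ch25h-/- Tau+. The groups overlapped, and its mean Ch25h loss was -0.11 (interval -0.33 to 0.11; -0.36 with the class covariate). Rab3c (chr13:110054187-110280996, minus strand) was at 376, 357, 384 and 223 CPM in Ch25h+/+ Tau-, 306, 453, 286 and 251 in Ch25h+/+ Tau+, 498, 351, 439 and 429 in Ch25h-/- Tau-, and 429, 472, 405 and 515 in Ch25h-/- Tau+. It rose with Ch25h loss (log2 fold change 0.42, standard error 0.12; edgeR adjusted p 0.0238), with overlap in both tau states through Ch25h-/- Tau- replicate 2 and Ch25h+/+ Tau+ replicate 2.

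In the group of priming and scaffold proteins, 4 of 9 rose and 1 fell with Ch25h loss, where 9.55% of all genes rose and 10.8% fell. RIM proteins tether vesicles and calcium channels at the release site. Rims1 ranged over 181 to 336 CPM (median 293) and was not past the threshold for Ch25h loss (0.16, edgeR adjusted p 0.185). Rims2 (chr15:39198261-39684372, plus strand) was at 121, 118, 126 and 119.6 CPM in Ch25h+/+ Tau-, 87.0, 119.5, 124 and 113 in Ch25h+/+ Tau+, 134, 149, 139 and 135 in Ch25h-/- Tau-, and 121, 140.0, 133 and 137 in Ch25h-/- Tau+. It rose (log2 fold change 0.23, standard error 0.062; edgeR adjusted p 0.0159; log2 fold change 0.081 with the class covariate). All 7 rRNA-rich libraries lay above all 8 Ch25h+/+ libraries, and the rRNA-poor Ch25h-/- library lay within the Ch25h+/+ range.

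Munc13 proteins prime docked vesicles. Unc13a, the main isoform of excitatory terminals, was at 583, 592, 509 and 575 CPM in Ch25h+/+ Tau-, 413, 549, 546 and 474 in Ch25h+/+ Tau+, 574, 511, 570.0 and 468 in Ch25h-/- Tau-, and 629, 495, 508 and 489 in Ch25h-/- Tau+. Its lowest library was Ch25h+/+ Tau+ replicate 1 and its highest Ch25h-/- Tau+ replicate 1, and the mean Ch25h loss was 0.004 (interval -0.15 to 0.16; 0.30 with the class covariate and 0.12 with the GC offsets). Unc13b (chr4:43058953-43264871, plus strand) was at 81.7, 78.0, 67.4 and 82.1 CPM in Ch25h+/+ Tau-, 66.2, 77.1, 80.1 and 62.0 in Ch25h+/+ Tau+, 109, 79.8, 102 and 77.6 in Ch25h-/- Tau-, and 91.0, 86.5, 93.9 and 80.4 in Ch25h-/- Tau+. It rose (log2 fold change 0.28, standard error 0.078; edgeR adjusted p 0.0209), with overlap in Tau- and none in Tau+. Unc13c, known best from cerebellum, was at 25.5, 21.8, 27.1 and 23.4 CPM in Ch25h+/+ Tau-, 12.3, 21.2, 29.4 and 25.3 in Ch25h+/+ Tau+, 25.0, 27.4, 29.0 and 32.2 in Ch25h-/- Tau-, and 18.9, 25.5, 29.2 and 33.5 in Ch25h-/- Tau+. It did not pass (0.24, interval -0.050 to 0.54; -0.33 with the class covariate), and Ch25h+/+ Tau+ replicate 1 was again the lowest library.

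Bassoon and Piccolo are the giant scaffolds of the active zone. Bsn ranged over 329.6 to 812 CPM (median 623), with a mean Ch25h loss of 0.20 (interval -0.063 to 0.47). Pclo (chr5:14514918-14863459, plus strand) was at 185, 184, 136 and 159 CPM in Ch25h+/+ Tau-, 113, 229, 241 and 134 in Ch25h+/+ Tau+, 236, 203, 277 and 209 in Ch25h-/- Tau-, and 203, 212, 215 and 327 in Ch25h-/- Tau+. It had the largest rise of the 39 genes (log2 fold change 0.45, standard error 0.15; edgeR adjusted p 0.0386). The genotypes did not overlap in Tau-, and in Tau+ 2 Ch25h+/+ libraries lay above 3 of the Ch25h-/- libraries. Antisense genes lie opposite 4.12% of its exon bases.

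Erc2 (CAST) binds RIM, Bassoon and Piccolo. It was at 143, 129, 151 and 116 CPM in Ch25h+/+ Tau-, 107, 146, 122 and 117 in Ch25h+/+ Tau+, 152, 139, 148 and 162 in Ch25h-/- Tau-, and 142, 152, 156 and 165 in Ch25h-/- Tau+. It rose with Ch25h loss (log2 fold change 0.24, standard error 0.067; edgeR adjusted p 0.0215), with overlap in both tau states. Ppfia3 (liprin-alpha 3, chr7:45339122-45367019, minus strand) recruits RIM and Munc13 and was the scaffold gene that fell. It was at 349, 345, 317 and 359 CPM in Ch25h+/+ Tau-, 328, 308, 319.6 and 325 in Ch25h+/+ Tau+, 251, 329, 278 and 281 in Ch25h-/- Tau-, and 317, 262, 269.9 and 278 in Ch25h-/- Tau+. Its change was -0.23 (standard error 0.057; edgeR adjusted p 0.0126; log2 fold change -0.025 with the class covariate and 0.008 with the GC offsets), with 1 Ch25h-/- library within the Ch25h+/+ range in each tau state.

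Vesicle membrane is retrieved by endocytosis. Dnm1, the neuronal dynamin, was at 1969, 1985, 1744 and 1841 CPM in Ch25h+/+ Tau-, 1975, 1690.2, 1818 and 1748 in Ch25h+/+ Tau+, 1494, 1793, 1659.8 and 1885 in Ch25h-/- Tau-, and 1774, 1889, 1648 and 1719 in Ch25h-/- Tau+. The groups overlapped and no comparison passed (mean Ch25h loss -0.091, interval -0.22 to 0.032; 0.076 with the GC offsets). Amph (amphiphysin) was at 224, 219, 229 and 194 CPM in Ch25h+/+ Tau-, 216, 210.3, 203 and 206 in Ch25h+/+ Tau+, 204, 205, 214 and 231 in Ch25h-/- Tau-, and 210.1, 240.1, 207 and 206 in Ch25h-/- Tau+. All groups overlapped, with a mean Ch25h loss of 0.013 (interval -0.091 to 0.12).

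Bin1 encodes amphiphysin 2, a membrane-bending protein that binds tau and is also made by oligodendrocytes. It was at 337, 356, 328 and 369 CPM in Ch25h+/+ Tau-, 381, 294, 331 and 313 in Ch25h+/+ Tau+, 268, 279.8, 314 and 306 in Ch25h-/- Tau-, and 339, 269, 288 and 272 in Ch25h-/- Tau+. Bin1 fell with Ch25h loss (log2 fold change -0.21, standard error 0.064; edgeR adjusted p 0.0272; log2 fold change 0.042 with the class covariate), without overlap in Tau- and with overlap in Tau+. An antisense gene lies opposite 6.22% of its exon bases. Of the 7 oligodendrocyte markers examined 3 fell and 0 rose in the same comparison, with a sum of 2681 to 5082 CPM in the 8 Ch25h+/+ libraries and 2107 to 3912 CPM in the 8 Ch25h-/- libraries. None of the 7 was at 0 in any library, and the part of these cells in the Bin1 result was not tested.

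Neurexins are presynaptic adhesion proteins that meet neuroligins across the cleft. Nrxn2 (chr19:6418731-6544169, plus strand) was at 612, 594, 567 and 545 CPM in Ch25h+/+ Tau-, 552, 587, 579 and 588 in Ch25h+/+ Tau+, 487, 451, 416 and 508 in Ch25h-/- Tau-, and 526, 476, 479 and 515 in Ch25h-/- Tau+. All 8 Ch25h-/- libraries lay below all 8 Ch25h+/+ libraries. It fell for the mean Ch25h loss (log2 fold change -0.26, standard error 0.051; edgeR adjusted p 0.00373; log2 fold change -0.005 with the GC offsets) and in Tau- (log2 fold change -0.32, standard error 0.072; edgeR adjusted p 0.0476), and the value in Tau+ was -0.21 (adjusted p 0.0968). Genes on the other strand lie opposite 6.44% of its exon bases. When each library was left out in turn, the call in Tau- remained in 3 of 16 fits, those without Ch25h+/+ Tau+ replicate 1, Ch25h-/- Tau- replicate 4 or Ch25h-/- Tau+ replicate 1. Without any of the other 13 libraries the adjusted p was 0.0552 to 0.185. Nrxn3 was at 182, 194, 165 and 171 CPM in Ch25h+/+ Tau-, 133, 209, 211 and 168 in Ch25h+/+ Tau+, 176, 206, 214 and 205 in Ch25h-/- Tau-, and 199, 213, 196 and 226 in Ch25h-/- Tau+. Ch25h+/+ Tau+ replicate 1 was its lowest library, and its mean Ch25h loss of 0.19 did not pass (edgeR adjusted p 0.0987).

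**Figure D3:**
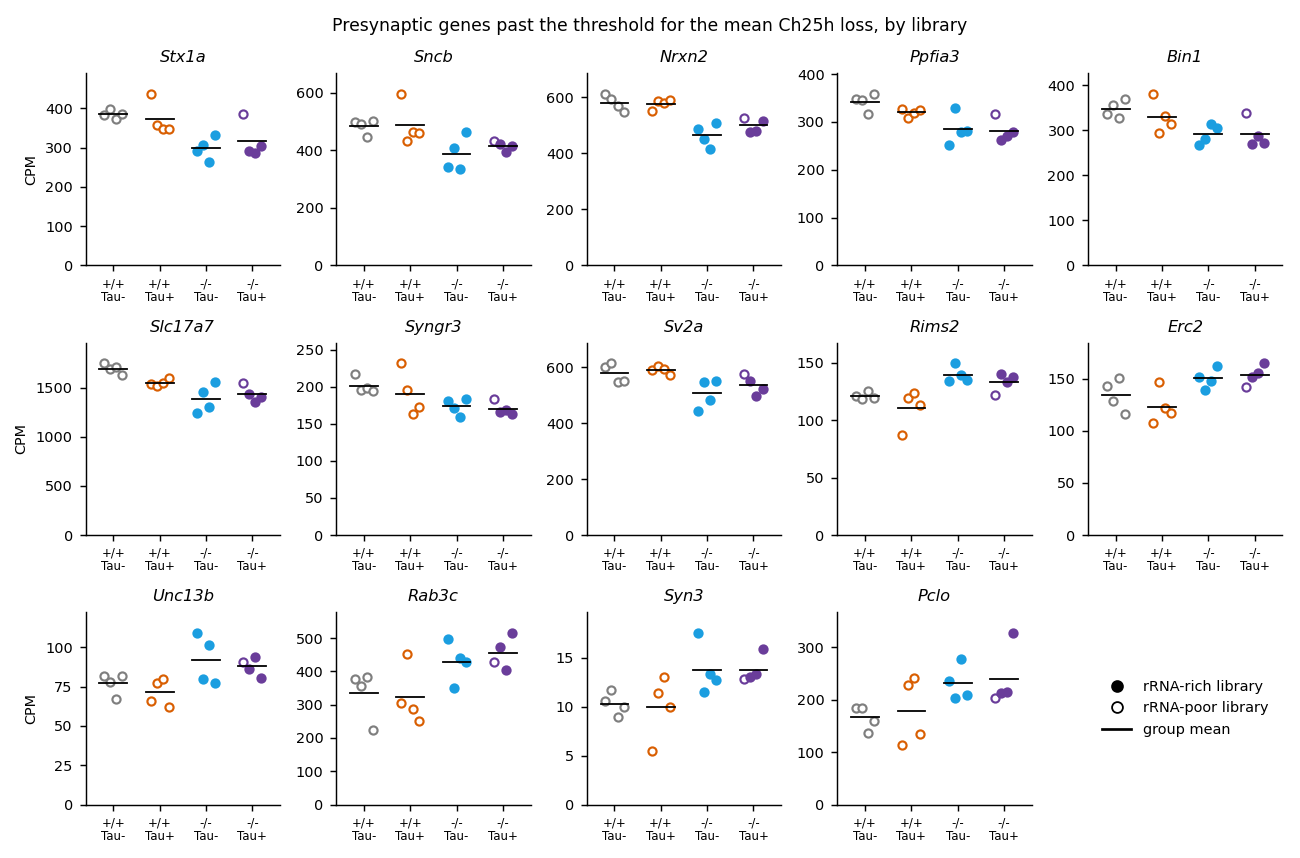
CPM in each library for the 14 genes called for Ch25h loss over both tau states, by group, with filled points for rRNA-rich libraries, open points for rRNA-poor libraries and a line at the group mean. The 1 open point among the Ch25h-/- groups lies within the range of the 8 Ch25h+/+ libraries for 6 of the 8 genes that fell and 5 of the 6 that rose.

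The calls differed in how far they rested on single libraries. When each library was left out in turn (16 fits), Nrxn2, Stx1a, Slc17a7, Ppfia3, Sncb and Rims2 passed every time. Erc2 failed without Ch25h-/- Tau+ replicate 4 (adjusted p 0.0513) and Unc13b without Ch25h-/- Tau- replicate 3 (0.0506). Rab3c failed without Ch25h+/+ Tau+ replicate 4 (0.0507) or Ch25h-/- Tau+ replicate 4 (0.0515). Bin1 failed without Ch25h+/+ Tau- replicate 4, Ch25h-/- Tau- replicate 1 or Ch25h-/- Tau+ replicates 2 or 4 (0.0505 to 0.056). Pclo failed in 7 of the 16 fits (those without replicates 3 or 4 of Ch25h+/+ Tau-, 1 or 4 of Ch25h+/+ Tau+, 1 or 3 of Ch25h-/- Tau- and 4 of Ch25h-/- Tau+; adjusted p up to 0.0934). Syn3 failed in 7 (those without replicates 3 or 4 of Ch25h+/+ Tau-, 4 of Ch25h+/+ Tau+, 1 or 3 of Ch25h-/- Tau- and 3 or 4 of Ch25h-/- Tau+; up to 0.0697). Sv2a passed in 6 of the 16 fits and Syngr3 in 4, with adjusted p up to 0.0792 and 0.09 in the rest. For Sv2a the fits that passed left out Ch25h+/+ Tau- replicate 3, Ch25h+/+ Tau+ replicates 1 or 2, Ch25h-/- Tau- replicates 2 or 4, or Ch25h-/- Tau+ replicate 1. For Syngr3 they left out Ch25h+/+ Tau+ replicates 3 or 4, Ch25h-/- Tau- replicate 4, or Ch25h-/- Tau+ replicate 1. No fit that left out a library turned the direction of any of the 14.

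The rRNA-poor library Ch25h-/- Tau+ replicate 1 gives the only values of Ch25h loss within a library class. For the 8 genes that fell, its median log2 ratio to the mean of the 8 Ch25h+/+ libraries was -0.068, against -0.25 for the 7 rRNA-rich libraries. For the 6 genes that rose the medians were 0.26 and 0.35, and for the other 25 genes -0.010 and 0.017. It was the highest of the 8 Ch25h-/- libraries for 5 of the 8 genes that fell. Stx1a was at 385 CPM there, beside 263 to 331 CPM in the rRNA-rich libraries, and Bin1 was at 339 CPM, beside 268 to 314 CPM. Unc13b, at 91.0 CPM, and Nrxn2, at 526 CPM, lay outside the Ch25h+/+ range in this library too, as did Sncb by less than 1 CPM. A single library carries no spread of its own, so these values are given without a test.

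Base composition separated the genes that fell from those that rose. The GC content of the longest transcript was 54.2% to 62.4% (median 57.5%) in the 8 genes that fell and 41.9% to 48.9% (median 45.4%) in the 6 that rose, with no overlap. In the coding sequence alone the ranges were 55.7% to 62.6% (median 58.2%) and 44.0% to 55.8% (median 48.7%), which overlap through Syn3 (55.8%). The exons of the genes that rose were also longer, with medians of 12165.5 and 4376.5 bases. Across the 39 genes the fold change of the mean Ch25h loss and GC content had a Spearman correlation of -0.696 (Pearson -0.687), and across 17598 genes with known GC content -0.563. Bsn went against the trend, with 59.8% GC and a fold change of 0.20. For the tau effects the correlation over the 39 genes was 0.0356 in Ch25h+/+ and 0.0846 in Ch25h-/-. Genes are not independent replicates, and all points share the same 16 libraries.

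The same trend appeared within libraries. The level of a gene relative to its mean over all libraries correlated with GC content across all genes at -0.400 to -0.263 in the 7 rRNA-rich libraries and at 0.0868 to 0.374 in the 9 rRNA-poor libraries (Spearman). Malat1, a nuclear RNA, was at 392 to 1041 CPM in the rRNA-rich and 167 to 290 CPM in the rRNA-poor libraries. With the GC offsets, where 3.91% of all genes passed, Rims2 remained (log2 fold change 0.21, edgeR adjusted p 0.0446) and Syp passed (-0.28, 0.0415). In that fit Stx1a was at -0.13, Sncb at -0.031, Nrxn2 at -0.005, Pclo at 0.35 and Syn3 at 0.34, none past the threshold. Since GC content, library class and genotype run together here, their parts in the result cannot be told apart.

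**Figure D4:**
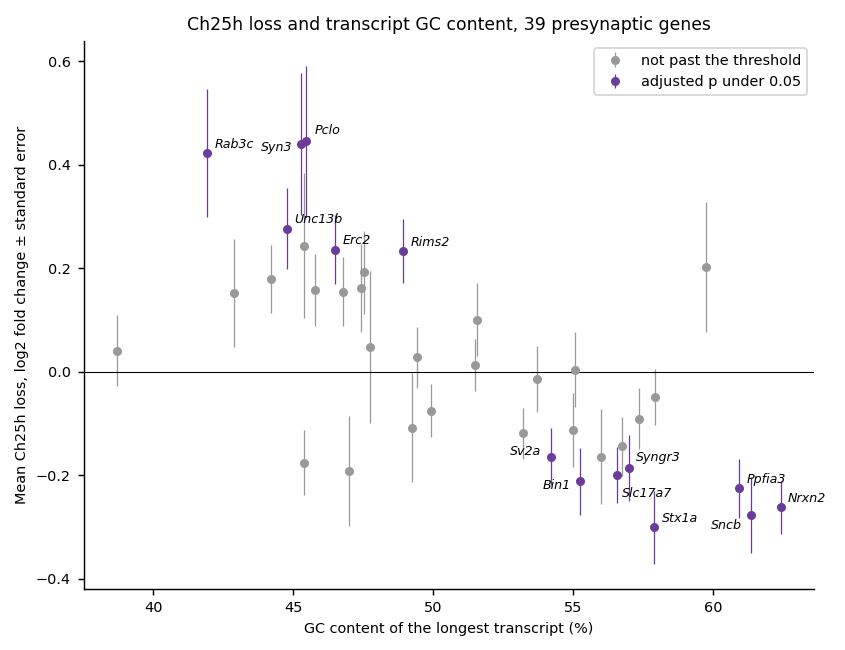
Log2 fold change of the mean Ch25h loss with its standard error against the GC content of the longest transcript for the 39 genes, with the 14 genes past the threshold coloured and named. The 8 genes that fell lie at 54.2% to 62.4% GC and the 6 that rose at 41.9% to 48.9%.

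A second library pattern touched the long genes. Ch25h+/+ Tau+ replicate 1 was the lowest of the 16 libraries for 12 of the 39 genes and the highest for 6. It was the lowest for the long transcripts Bsn (329.6 CPM), Pclo, Unc13c, Rims1 and Rims2, and the highest for Stx1a, Sncb, Rab3a, Syp, Syngr3 and Bin1. Within this library the relative level of the 39 genes correlated with exon length at -0.803 (Spearman, 39 genes), against -0.489 to 0.683 in the other 15 libraries. Without it, 0 of the 39 passed for the tau effect in Ch25h+/+ (all genes 1.65%) and 0 for Ch25h loss in Tau+ (all genes 1.49%). In the same fit 5 passed for Ch25h loss in Tau- (Nrxn2, Stx1a, Slc17a7 and Sncb lower, Rims2 higher), where 7.25% of all genes passed. Ch25h-/- Tau- replicate 1 was the lowest library for another 12 genes, among them Snap25, Cplx1 and Dnm1.

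The interaction asks whether Ch25h loss acts differently in Tau+ and Tau-. No such difference was detected for single genes: 0 of the 39 passed in edgeR (0.0338% of all genes), with 0 at an unadjusted p under 0.05 (all genes 4.13%) and 0 in DESeq2 and limma-voom. The fold changes leaned one way, with 38 of 39 above 0 (97.4%, against 53.7% of all genes) and a median of 0.10 (all genes 0.015). They ran from -0.061 for Pclo (interval -0.67 to 0.55) to 0.32 for Sv2c (interval -0.30 to 0.93). Also above 0 were 30 of 42 other vesicle and fusion genes, 12 of 15 other active zone genes and 18 of 23 other endocytosis genes. So were 8 of 8 neuron, 5 of 7 excitatory and 2 of 6 inhibitory neuron markers. Of the markers of astrocytes, microglia, oligodendrocytes and endothelium, 0 of 6, 0 of 6, 1 of 7 and 0 of 5 were above 0. Over the alternatives 31 to 38 of the 39 were above 0 and the median was 0.062 to 0.12. The genes share the 16 libraries and their composition, so these counts are a description and carry no test.

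Ratios of related genes within a library remove the scaling of the library but not its trend with GC content. Slc17a6 has 42.9% GC and Slc17a7 56.6%, and with the GC offsets their mean Ch25h loss went from 0.15 and -0.20 to 0.011 and -0.052. Slc17a6 to Slc17a7 was 0.0174 ± 0.00294 in Ch25h+/+ Tau-, 0.0194 ± 0.00470 in Ch25h+/+ Tau+, 0.0223 ± 0.00222 in Ch25h-/- Tau- and 0.0245 ± 0.00228 in Ch25h-/- Tau+ (SD, n = 4 in each). The lowest Ch25h-/- library, at 0.0194, lay within the Ch25h+/+ range, which reached 0.0243. Vamp1 to Vamp2 had group means of 0.155 to 0.184 and Cplx1 to Cplx2 of 0.559 to 0.682. Sv2c to Sv2a had means of 0.0544 to 0.0700, Rab3b to Rab3a of 0.0761 to 0.0809, Unc13c to Unc13a of 0.0436 to 0.0542, and Syn2 to Syn1 of 0.655 to 0.749. In Syn2 to Syn1 the highest Ch25h+/+ Tau+ and the lowest Ch25h-/- Tau+ library were both 0.715 when rounded, and these groups did not overlap by the unrounded ratio. In the other 5 of these pairs the libraries of all groups overlapped. For Slc17a6 to Slc17a7 the highest Ch25h+/+ Tau- library, at 0.0214, lay below the lowest Ch25h-/- Tau+ library, at 0.0227, and the other groups overlapped. No ratio was tested.

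**Figure D5:**
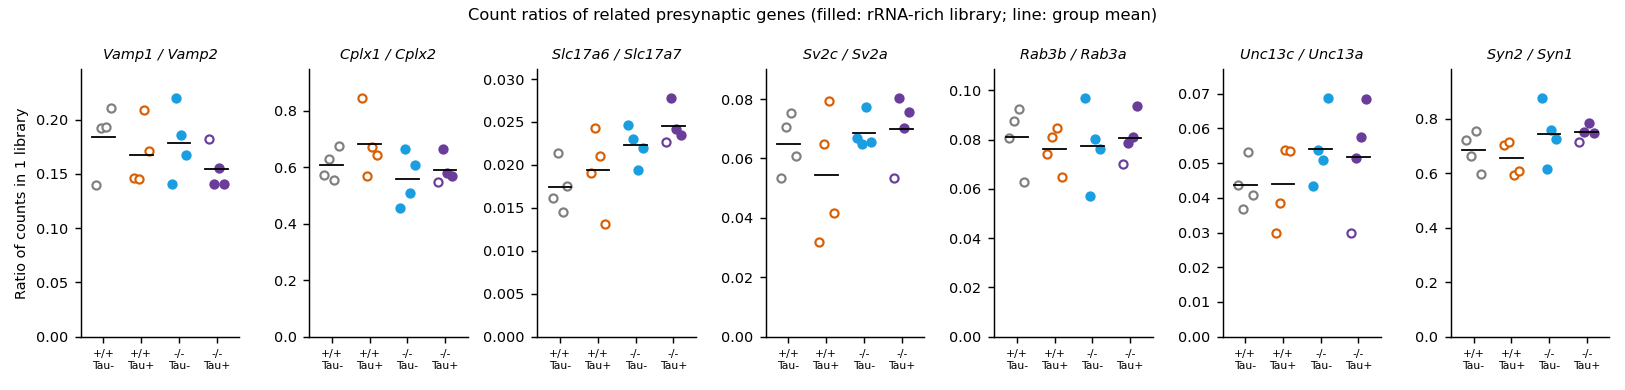
Ratio of counts of 7 pairs of related genes in each library, by group, with filled points for rRNA-rich libraries, open points for rRNA-poor libraries and a line at the group mean. The ratio of Slc17a6 to Slc17a7 has group means of 0.0174, 0.0194, 0.0223 and 0.0245 from Ch25h+/+ Tau- to Ch25h-/- Tau+, and Ch25h+/+ Tau- and Ch25h-/- Tau+ do not overlap in that pair. The ratios are not corrected for GC content.

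The other genes of the machinery are taken from 3 lists. Of 42 other vesicle and fusion genes tested 4 rose and 7 fell for the mean Ch25h loss, of 15 other active zone genes 4 rose and 1 fell, and of 23 other endocytosis genes 4 rose and 6 fell. Of all genes tested 9.55% rose and 10.8% fell. Among them Erc1, the close relative of Erc2, rose (log2 fold change 0.26, edgeR adjusted p 0.0290). The clathrin light chains Clta (-0.23, 0.0307) and Cltb (-0.24, 0.0129) fell, while the heavy chain Cltc rose (0.20, 0.0275). Cplx3, a less common complexin, fell (-0.48, 0.00298) and was the only one of these lists past the threshold for Ch25h loss in Tau+. For the tau effect in Ch25h+/+ 0 genes of each of the 3 lists passed, with medians of -0.049, -0.057 and -0.008. At an unadjusted p under 0.05 the counts were 3, 1 and 0.

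Markers of neurons and glia were read beside these values. The 8 neuron markers summed to 3415 to 3936 CPM in the Ch25h+/+ libraries and 3450 to 4075 CPM in the Ch25h-/- libraries, and 1 rose (Map2) and 2 fell (Rbfox3 and Tubb3) for the mean Ch25h loss. The 7 markers of cortical excitatory neurons summed to 2893 to 4386 CPM and 3846 to 4441 CPM. For the tau effect in Ch25h+/+ 0 of these 15 markers passed, while 1 of 6 astrocyte markers and 3 of 6 microglia markers rose. For the mean Ch25h loss 3 of 6 astrocyte markers fell and 0 rose, and 2 of 6 microglia markers fell and 1 rose. Of all genes 10.8% fell and 9.55% rose in that comparison. For Ch25h loss in Tau+ 2 of 6 astrocyte and 4 of 6 microglia markers fell (all genes 2.4%) and 0 rose. None of the markers of these 4 lists was at 0 in any library, and their part in the values of the 39 genes was not tested.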

How the data were processed

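RNA was extracted on columns and made into libraries with a SMARTER kit, per the labels' protocols. The authors deposited whole-number read counts per gene, aligned with STAR 2.7 to GRCm38 per the submitters' processing notes; the counter, annotation and use of strand are not given in the sources used here. Totals of 15530352 to 25602500 counts per library set the counting precision.

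Counts were fitted in edgeR 4.0.16 (R 4.3.3; TMM scaling, its default filter on low counts, quasi-likelihood F test) with 1 model over all 4 groups, and p-values were adjusted by Benjamini-Hochberg over 17736 genes at 0.05. CPM are counts scaled to the TMM-adjusted library total. Intervals are 95% and use the test's degrees of freedom. In data simulated for the tau effect in Ch25h+/+, 135 of 200 genes changed 2-fold were called, with 2 false calls. The simulated counts held no library class and no trend with GC content or exon length. They therefore say nothing of false calls from those patterns, nor of changes smaller than 2-fold. Alternatives used DESeq2 1.42.0, limma 3.58.1, other filters and scaling, a library class (1000 CPM of the ribosomal RNA entry), GC offsets and the removal of each library. Gene models came from GENCODE vM21.

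Replicate numbers follow accession order. The members and lists were chosen with earlier results of these data known. Values in every library are given for genes that passed in any comparison, were highest or lowest per kilobase in their role, or belong to a ratio pair; the other 4 genes are given by their range. Some genes of the comparison lists are not reported here by name.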

Additional observations from a re-analysis of the deposited data

Results flagged for a closer look

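Within the 156 sets of 4 libraries (39 genes in 4 groups), 11 held a library whose gap to its nearest neighbour took a larger part of the set's range than Dixon's 95% critical value, which chance gives in about 1 set in 20. In Ch25h+/+ Tau+, replicate 1 was high for Stx1a at 436.85 CPM (next 357.67) and Rab3a at 774.28 CPM (next 603.86), and low for Syt11 at 848.87 CPM (next 890.80). Replicate 2 of that group was high for Sv2b at 526.63 CPM (next 464.34). In Ch25h+/+ Tau-, replicate 4 was low for Syt1 at 1371.93 CPM (next 1574.38) and Rab3c at 223.29 CPM (next 357.01). In Ch25h-/- Tau-, replicate 4 was low for Rims1 at 272.51 CPM (next 333.19).

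In Ch25h-/- Tau+, replicate 1, the rRNA-poor library, was high for Unc13a at 628.59 CPM (next 508.32), and replicate 2 was high for Amph at 240.08 CPM (next 210.09). Replicate 3 was low for Vamp2 at 1103.97 CPM (next 1140.71), and replicate 4 was high for Pclo at 327.12 CPM (next 214.50). Without that last library the rise of Pclo for the mean Ch25h loss did not pass, as given above.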

How the results depend on the processing

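For the tau effect in either genotype, the mean tau effect and the interaction, 0 of the 39 genes passed in every alternative run. For the mean Ch25h loss 13 to 18 passed under RLE size factors, other filters, DESeq2 or limma-voom (all genes 9.42% to 28.1%). With the library class as a covariate 0 passed, and with GC-corrected offsets 2 (all genes 3.91%). When 1 library was left out 7 to 17 passed (all genes 13.5% to 23.5%). Removal of Ch25h-/- Tau+ replicate 4 gave the lowest count (7, all genes 13.5%). Removal of Ch25h+/+ Tau- replicate 4 or of Ch25h-/- Tau- replicates 1 or 3 gave 9 (all genes 14.3%, 16.9% and 13.5%). For Ch25h loss in Tau-, 2 passed with no filter beyond 1 count (all genes 1.54%), 6 with DESeq2 (all genes 10%) and 8 with limma-voom (all genes 7.83%). With the class covariate 0 passed, and 0 with GC-corrected offsets (all genes 0.0739%). In a fit of only the 8 libraries compared 4 passed (all genes 7.27%), and 0 to 5 when 1 library was left out (all genes 0.0167% to 7.25%). For Ch25h loss in Tau+, 1 passed with no filter beyond 1 count (all genes 2.58%), 3 with DESeq2 (all genes 9.54%) and 5 with limma-voom (all genes 10.6%). When 1 library was left out 0 to 2 passed (all genes 0.602% to 9.42%). The count was 2 without Ch25h+/+ Tau+ replicate 2 (all genes 7.01%) or Ch25h-/- Tau+ replicate 1 (all genes 9.42%). The fit with the class covariate separates class from genotype through 1 Ch25h-/- library. In it the mean Ch25h loss of Stx1a turned to 0.036 and of Bin1 to 0.042. The other 12 genes called kept their direction, among them Unc13b at 0.33, Rab3c at 0.32, Syn3 at 0.32 and Sncb at -0.21. With GC-corrected offsets the value of Ppfia3 turned to 0.008; the cause was not tested. Of the genes not called, Sv2b, Sv2c, Snap25, Vamp1, Nsf, Napb, Unc13c and Amph also turned with the class covariate (Unc13c to -0.33, Sv2c to -0.27), and Syn1, Syngr1, Sv2c, Snap25, Cplx2, Rab3a and Dnm1 with GC-corrected offsets. Over the alternatives the median of the 39 genes was -0.12 to -0.031 for Ch25h loss in Tau-, 0.001 to 0.11 in Tau+, -0.044 to 0.026 for the mean Ch25h loss and -0.022 to 0.029 for the mean tau effect. No paired analysis was possible because the labels carry no replicate numbers shared between groups.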
